A study of Ictidomys tridecemlineatus with 31 samples.

Results

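In the kidney of the 13-lined ground squirrel (Ictidomys tridecemlineatus), messenger RNA of 10 genes of DNA replication was followed through the hibernation year: Lig1, Pcna, Mcm2, Mcm3, Mcm4, Mcm5, Mcm6, Mcm7, Rrm1, and Rfc1. They were found by gene symbol, without regard to case, among the 12863 genes of the deposited table; 9 of the 10 were found, and no row carried the symbol Mcm6. Of the 12863 rows, 919 carry no symbol, so here and below a gene called absent is one with no row under its symbol. Each of the 31 animals gave 1 kidney. They were untreated animals in 6 physiological states, assigned by body temperature: summer active (SA, n = 5), interbout aroused (IBA, n = 5), entering torpor (Ent, n = 5), arousing from torpor at an early (EAr, n = 5) or a later, warmer point (LAr, n = 6), and spring dark (SpD, n = 5), animals that had ended hibernation but were still housed in the hibernaculum. SA and SpD make up the active season, and IBA, Ent, EAr, and LAr are the 4 states of the hibernation season. All animals carried temperature devices and were perfused before dissection, both sexes were present in every state, and no ages were used here. The study left out 3 animals as outliers: K113 (LAr) and K137 (SA), which are among the 31, and K136 (SA), which was not analysed here. K113 and K137 are shown apart below, so the main values come from 29 animals (SA n = 4 and every other state n = 5).

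The MCM2 to MCM7 proteins form the ring-shaped helicase that is loaded onto origins before S phase and unwinds DNA ahead of the fork. PCNA is the sliding clamp that holds polymerases on DNA, RFC1 is the large subunit of the clamp loader that opens it, LIG1 is the ligase that seals Okazaki fragments on the lagging strand, and RRM1 is the large subunit of ribonucleotide reductase, which makes deoxynucleotides. Several of these proteins have roles outside S phase too: PCNA, RFC, and LIG1 act in excision repair, and MCM proteins are kept in excess over what replication needs. In the healthy adult kidney few tubule cells divide, so their messages are read from a mostly nonproliferating tissue.

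Values are rlog counts, a regularized log2 scale that the authors corrected for sequencing experiment, so a difference of 1 would be a 2-fold change and small counts are drawn together. The scale is not per transcript length, so levels are compared between animals for the same gene and never between genes. No read depth accompanies the table, so depth is unknown. Genes are called differentially expressed (DE) at q under 0.001, the study's own threshold, where q is limma's Benjamini-Hochberg adjusted P value over all 12863 genes.

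SA stood apart for Lig1 and for part of the MCM ring. Without K113 and K137, Lig1 was lower in all 4 SA animals than in all 25 others, as for 0.63% of all genes. Mcm7 was lower in SA than in every hibernating animal, as for 1.89% of all genes. Mcm5 was lower in SA than in every IBA and every SpD animal, patterns that 9.17% and 5.33% of all genes showed. Mean levels were lowest in SA for 6 of the 9 genes and highest in IBA for 7 of the 9. The share of all genes with such an order is not given here, so these counts are descriptions only. Between neighbours in the order of means, q was under 0.05 only for Lig1 (LAr over SA, q = 0.000485) and Mcm7 (SpD over SA, q = 0.0335). Mcm4 and Pcna did not share the SA minimum: both were lowest in EAr. These statements hold for the 29 animals, and none of the 3 separations is complete once K137 is put back, as set out below. In bulk kidney RNA, fewer cells of a type and less RNA per cell cannot be told apart.

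**Figure D1:**
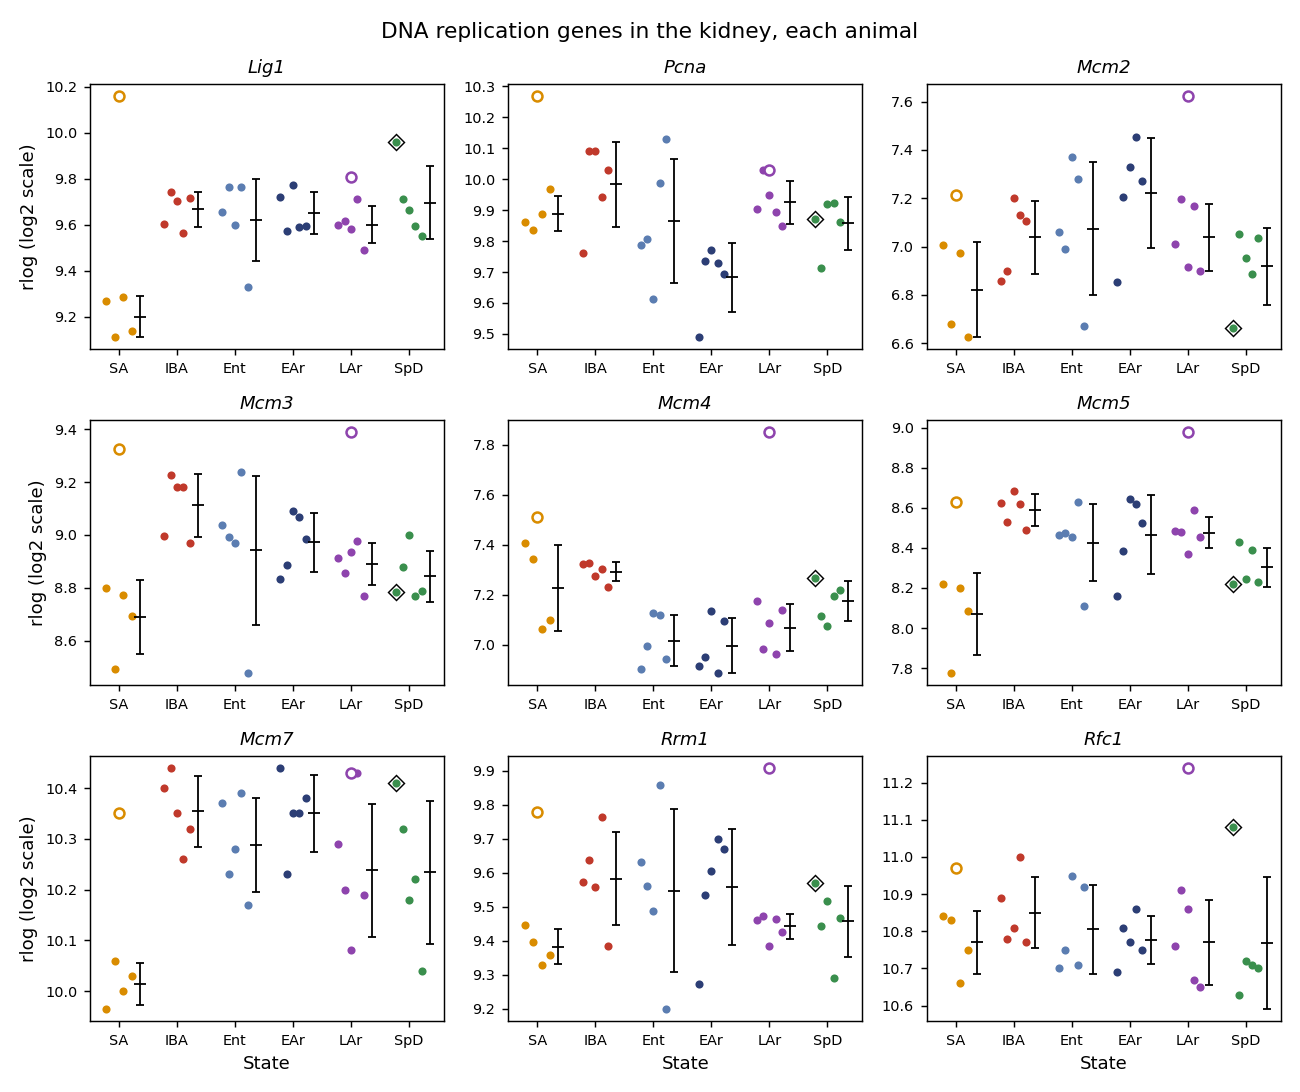
Level (rlog, log2 scale) of each of the 9 genes in each animal by state; filled points are the 29 animals, open circles are K113 (LAr) and K137 (SA), black diamonds mark SpD animal K130, and bars are mean ± SD of the filled points. The 4 filled SA points for Lig1 lie from 9.11 to 9.28, and K137 lies at 10.16, the highest of all 31 animals; each panel has its own axis, which does not start at 0.

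Across the 6 states, 1 of the 9 genes was DE, Lig1 (q = 0.000154), where 9.34% of all genes tested were. At q under 0.05, 5 of the 9 passed, Lig1, Mcm3 (q = 0.0323), Mcm4 (q = 0.0118), Mcm5 (q = 0.00322), and Mcm7 (q = 0.00333), beside 46.1% of all genes, so that share was near the background. With all 31 animals none was DE by limma across the states (5.58% of all genes were), while 1 of the 9, Mcm7 (q = 0.0392), had a q under 0.05, beside 32.8% of all genes. An unadjusted P under 0.05 was found for 3 of the 9, a count given without the share of all genes.

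Lig1 (gene19034) was the ligase of the set. Its level was 9.27, 9.11, 9.28, and 9.14 in the SA animals K138, K139, K140, and K141 (mean 9.20 ± 0.088, SD, n = 4). In SpD it was 9.96, 9.71, 9.66, 9.60, and 9.55 (mean 9.70 ± 0.16, n = 5). The 20 hibernating animals lay between 9.33 and 9.77, with state means of 9.67 ± 0.077 in IBA, 9.62 ± 0.18 in Ent, 9.65 ± 0.090 in EAr, and 9.60 ± 0.079 in LAr (SD, n = 5 each). Every SA animal was therefore below every other animal, a pattern that 0.63% of all genes showed. The fitted difference between the hibernating states together and SA, a contrast added after the seasonal result was seen, was 0.48 (SE 0.065, 95% confidence interval 0.34 to 0.61), a 1.39-fold higher level in hibernation (q = 1.79e-05).

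Each of the 5 other states exceeded SA for Lig1. The differences from SA were 0.55 in IBA (q = 9.84e-05), 0.51 in Ent (q = 0.000600), 0.44 in EAr (q = 0.000236), and 0.40 in LAr (q = 0.000485), where 3.15%, 0.855%, 4.49%, and 5.47% of all genes were DE. SA was 0.58 lower than SpD (q = 0.000888), in a comparison in which 0.0544% of all genes, or 7 genes, were DE. No neighbouring states above SA in the order of means (SpD, IBA, EAr, Ent, LAr) differed beyond their spread (q of 0.385 or more). The comparison of hibernation with SpD gave a Lig1 difference of -0.10 (95% confidence interval -0.23 to 0.02, q = 0.219).

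The Lig1 result depended on whether K137 was left out. This SA animal had the highest Lig1 level of all 31 (10.16), 0.96 above the mean of the other SA animals. With K137 and K113 included, SA had a mean of 9.39 ± 0.44 (n = 5), the difference between hibernation and SA was 0.29 (q = 0.0566), and q across the states was 0.265. In a fit added after seeing the data, K137 put back alone gave 0.28 (q = 0.0610) and a q across the states of 0.258, whereas K113 put back alone gave 0.48 (q = 1.79e-05) and 0.000197. Leaving out any other animal in turn kept q for hibernation minus SA between 4.83e-06 and 0.000288, whereas q across the states rose to 0.00139 without SA animal K139 and 0.00110 without K141. The SA minus SpD call was lost in 22 of the 29 fits, with q = 0.0174 without SpD animal K130 and 0.00603 without K139. All SA animals were sequenced in the later of the 2 experiments. Within that experiment alone, Lig1 was 0.48 higher in hibernation than in SA (q = 3.27e-05) and 0.58 lower in SA than in SpD (q = 0.000748). That experiment holds only 2 SpD animals, K130 (9.96) and K84 (9.60), so its SA minus SpD value rests on these 2. Both lie above the highest of the 4 SA animals (9.28), K130 by more.

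Mcm5 (gene5946), a subunit of the helicase ring at the gate through which DNA enters, was the MCM gene called by season. Its SA levels were 8.22, 7.77, 8.20, and 8.08 (mean 8.07 ± 0.20, n = 4). IBA lay between 8.49 and 8.69 (mean 8.59 ± 0.078, n = 5), with no overlap with SA. LAr (8.48 ± 0.078), EAr (8.47 ± 0.20), and Ent (8.43 ± 0.19) followed, and SpD (8.30 ± 0.099) lay between them and SA. Mcm5 was the 1 gene of the 9 that was DE between hibernation and the active season (0.30 higher, SE 0.060, 95% confidence interval 0.18 to 0.43, q = 0.000423), where 9.73% of all genes were DE and 4.43% were higher in hibernation.

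Both active states lay below IBA for Mcm5. The difference of hibernation from SA was 0.44 (SE 0.084, q = 0.000521), and that from SpD was 0.17 (95% confidence interval 0.01 to 0.33, q = 0.121). SA and SpD themselves did not differ beyond the threshold (-0.27, q = 0.106), although no SA animal reached the lowest SpD animal (8.22 in each to 2 decimals). Every SpD animal was below every IBA animal (difference -0.29, q = 0.0464), as for 3.31% of all genes. The means differed by -0.28 within the earlier experiment (n = 3 each) and by -0.30 within the later one (n = 2 each). In all 31 animals the seasonal difference of Mcm5 was 0.26 (q = 0.0109) and that from SA was 0.34 (q = 0.0205). The seasonal q rose above 0.001 without SA animal K139 (0.00217), without SpD animal K130 (0.00120) or K9 (0.00116), and within the later experiment alone (0.00158).

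Mcm7 (gene11468), another ring subunit, had the smallest SD in SA of the 9 genes. Its levels there were 9.96 in K138, 10.06 in K139, and 10.03 in K141, with K140 between K138 and K141 (mean 10.02 ± 0.041, n = 4), and all 20 hibernating animals were higher, from 10.08 to 10.44. Lig1 and Mcm7 were the 2 genes of the 9 with every SA animal below every hibernating animal, as for 1.89% of all genes. In SpD the levels ran from 10.04 to 10.41, so a single SpD animal, K9, fell among the SA values. Mcm7 was 0.32 higher in hibernation than in SA (SE 0.059, 95% confidence interval 0.19 to 0.44, q = 0.000416) and 0.26 lower in SA than in SpD (q = 0.0335), while hibernation and SpD differed by 0.05 (95% confidence interval -0.06 to 0.17, q = 0.512). The difference from SA in all 31 animals was 0.26 (q = 0.00549).

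Mcm3 (gene2582), which neighbours MCM5 in the ring, had the SA levels 8.80, 8.49, 8.77, and 8.70 (mean 8.69 ± 0.14, n = 4). All IBA animals were above them, from 8.97 to 9.23 (mean 9.11 ± 0.12, n = 5). In 4 of the 9 genes, Lig1, Mcm3, Mcm5, and Mcm7, every SA animal was below every IBA animal, as for 9.17% of all genes. Mcm3 was 0.46 higher in IBA than in SA (q = 0.00658) and 0.31 higher in hibernation than in SA (SE 0.089, q = 0.0115), neither of which was DE. Within the later experiment alone that difference was 0.34 (q = 0.000334) and the seasonal difference was 0.30 (q = 0.000404). In all 31 animals the difference from SA was 0.20 (q = 0.199).

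Mcm2 (gene22917), the subunit that also binds histones, had the largest residual SD of the 9 (0.19). It ranged from 6.67 to 7.37 among the 5 Ent animals and from 6.62 to 7.01 in SA, and its highest mean was in EAr (7.22 ± 0.23, n = 5). The groups overlapped throughout. The seasonal difference was 0.22 (95% confidence interval 0.07 to 0.38, q = 0.0238), and the largest difference from SA was that of EAr (0.39, q = 0.0260). The authors kept genes with rlog of at least 7 in 4 of 5 individuals of a group. By the deposited values without K113 and K137, Mcm2 could pass this filter only through EAr. The EAr maximum and these differences therefore come from a gene kept through the state in which it was highest. Its mean lies near the lower end of the table, where rlog draws values together.

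Mcm4 (gene15076) did not follow the other ring subunits. Its IBA levels were 7.32, 7.33, 7.28, 7.31, and 7.23 (mean 7.29 ± 0.039, n = 5), and all animals in Ent (7.02 ± 0.10), EAr (6.997 ± 0.11), and LAr (7.07 ± 0.094) were lower. It was the 1 gene of the 9 with no overlap between IBA and any of these states, patterns that 4.51%, 7.57%, and 7.62% of all genes showed. Levels were 0.28 lower in Ent than in IBA (q = 0.0175) and 0.31 lower in EAr than in IBA (q = 0.0157). SA animals spread from 7.06 to 7.41 and overlapped each of the other states, and EAr was 0.23 below SA (q = 0.0327). For Ent and IBA, which both experiments hold, Ent was lower by 0.22 in the earlier (n = 3 each) and 0.35 in the later experiment (n = 2 each). Mcm4 levels lie near those of Mcm2, where rlog draws values together, which also bears on the small SD in IBA.

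Within the hibernation season none of the 9 genes was DE by limma, against 1.83% of all genes. At q under 0.05, 1 of the 9 passed, beside 16.1% of all genes. An unadjusted P under 0.05 was found for 2 of the 9, Mcm4 (q = 0.0257) and Pcna (q = 0.0504). The share of all genes at that P is not given here, so the count of 2 is a description only. Over all 31 animals, q was 0.179 for Mcm4 and 0.0911 for Pcna, and Mcm4 in K113 was 7.85 beside 6.96 to 7.18 in the other LAr animals.

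Pcna (gene4334), the clamp, was lowest in EAr, with 9.49, 9.74, 9.77, 9.73, and 9.69 (mean 9.68 ± 0.11, n = 5). It was 0.32 lower in EAr than in IBA (q = 0.0178), where the mean was 9.99 ± 0.14 with 1 animal, K1, at 9.76 inside the EAr range. All 5 LAr animals (9.85 to 10.03) and all 4 SA animals (9.84 to 9.97) were above all 5 EAr animals, as for 3.74% and 13.3% of all genes. The seasonal difference was near 0 (-0.01, 95% confidence interval -0.11 to 0.10, q = 0.907). Ent minus IBA was -0.0036 in the earlier experiment (n = 3 each) and -0.30 in the later one (n = 2 each).

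Rfc1 (gene3822), the clamp loader subunit, had no q under 0.05 in any of the comparisons fitted. Its state means lay between 10.77 and 10.85, and its seasonal difference was 0.03 (95% confidence interval -0.07 to 0.13, q = 0.657). Rrm1 (gene6689) was lowest in SA (9.38 ± 0.051, n = 4) and highest in IBA (9.58 ± 0.14, n = 5), with overlapping groups. Its seasonal difference was 0.11 (95% confidence interval -0.01 to 0.23, q = 0.144), and within the later experiment alone it was 0.15 (q = 0.0343).

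Setting the contrasts side by side, hibernation minus SA called 3 of the 9 genes DE, Lig1, Mcm5, and Mcm7, all higher in hibernation, where 6.48% of all genes were DE and 2.75% were higher. Hibernation minus SpD called none by limma, where 2.81% of all genes were DE. There 1 gene, Mcm5, had an unadjusted P under 0.05, a count given without the share of all genes. The comparisons with SA and with SpD share the 20 hibernating animals, so their values are not independent. The median difference over the 9 genes was 0.25 against SA and 0.05 against SpD, beside medians over all genes of 0.0064 and 0.00062. Once K113 and K137 were put back none of the 9 was DE against SA by limma (3.22% of all genes were), and 2, Mcm5 and Mcm7, had a q under 0.05, beside 21.8% of all genes. Leaving out any of the 4 SA animals reduced the 3 calls to 1, Lig1. The Mcm5 call was also lost without Ent animal K155 (q = 0.00106) and with K113 put back alone (q = 0.00108), and the Mcm7 call with array weights (q = 0.00130).

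**Figure D2:**
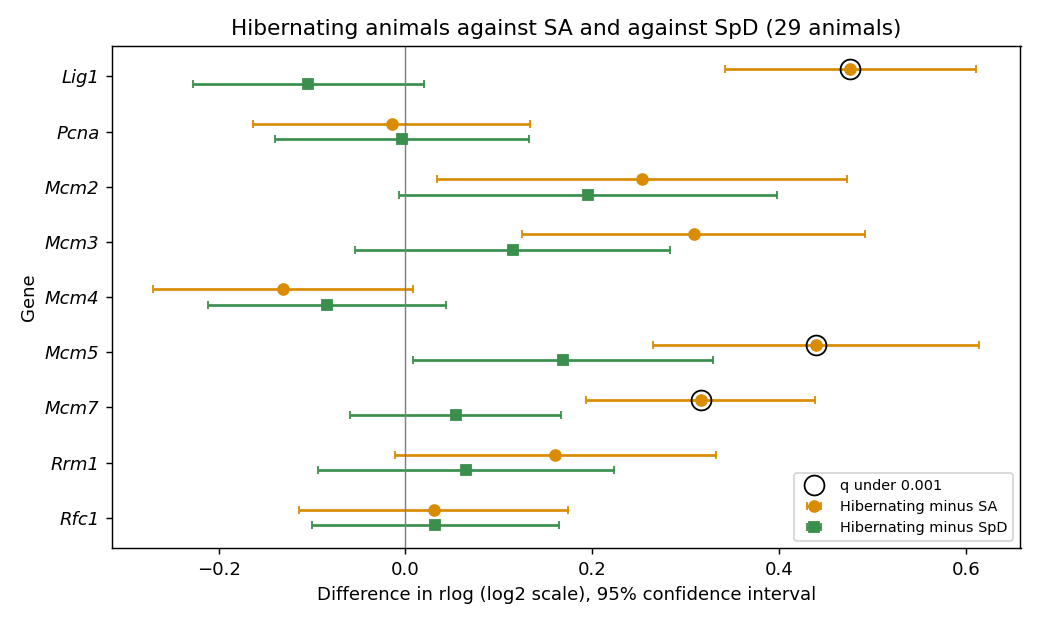
Fitted difference in level (rlog, log2 scale) between the 20 hibernating animals and the 4 SA animals (orange circles) or the 5 SpD animals (green squares) for each gene, with 95% confidence intervals; black rings mark q under 0.001. Lig1 (0.48), Mcm5 (0.44), and Mcm7 (0.32) are ringed against SA, and no gene is ringed against SpD.

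K113 and K137 carried high levels of the whole set. In K113 all 9 genes were above the other 5 LAr animals, by 0.78 for Mcm4, 0.59 for Mcm2, 0.50 for Mcm3 and Mcm5, 0.47 for Rfc1 and Rrm1, and 0.10 to 0.21 for Pcna, Mcm7, and Lig1. It held the highest level of all 31 animals for Mcm2, Mcm3, Mcm4, Mcm5, Rrm1, and Rfc1. In K137 all 9 genes were above the other 4 SA animals, with differences from their mean of 0.20 for Rfc1 to 0.96 for Lig1. Across all genes, 35.6% were above the other LAr animals in K113 and 33.9% above the other SA animals in K137. Each of these is 1 animal, so neither difference was tested.

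The 2 animals differed in which genes stood out. K137 ranked highest of 31 for Lig1 and Pcna, and K113 ranked 3 from the top for Lig1 (9.81) and 6 for Pcna (10.03). Slc14a2, a urea transporter of the inner medulla, was 12.87 in K113 beside 6.31 to 6.91 in the other LAr animals, and 13.51 in K137 beside 6.17 to 10.43 in the other SA animals. Aqp2, of collecting duct principal cells, was 13.69 and 14.55 in them, above 11.73 to 12.54 and 12.39 to 13.07. Avpr2, of the same list, was above the other animals too (9.48 and 10.09). Hsd11b2, also of that list, was below them, at 14.44 and 14.04 beside 14.99 to 15.16 and 14.51 to 14.99. The proximal tubule gene Lrp2 was lower, at 14.51 and 14.45, below 15.44 to 15.74 and 15.35 to 15.93. The part of tissue make-up in the levels of the 9 genes was not tested.

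K130, an SpD animal kept in the main set, had Slc14a2 at 12.99, Aqp2 at 14.31, and Lrp2 at 14.47, near the levels in K113 and K137. Slc14a2 was also high in 2 further kept animals, IBA animal K104 (12.24) and SpD animal K84 (11.82). Hsd11b2 in K130 (14.57) was below the other SpD animals (14.98 to 15.29). The intercalated cell genes Atp6v0d2 and Slc4a1 were above them in K130 (12.10 and 12.17). In K113 and K137 both were below the others of their states. Atp6v1g3, of the same list, was below in K113, K137, and K130. The replication genes of K130 were mixed: 5 of the 9 were above the other SpD animals, 2 below (Mcm2 and Mcm5), and 2 within their range, beside 32.7% of all genes above and 28.4% below. Of all 31 animals it ranked 2 from the top for Lig1 (9.96) and Rfc1 (11.08), and 30 for Mcm2 (6.66). In the Ent animal K8, 6 of the 9 genes had the lowest Ent level (Lig1 9.33, Mcm2 6.67, Mcm3 8.48, Mcm5 8.11, Mcm7 10.17, and Rrm1 9.20), and Pcna (10.13) had the highest. Without K8, 4 of the 9 genes were DE by season in place of 1, where 12.1% of all genes were DE in place of 9.73%: Lig1 (0.20, q = 0.000622), Mcm3 (0.24, q = 0.000523), Mcm7 (0.19, q = 0.000986), and Mcm5 (q = 0.000110).

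Over the 29 animals, Mcm2, Mcm3, and Mcm5 were the ring subunits that varied together most. Pearson's r was 0.84 between Mcm3 and Mcm5, 0.71 between Mcm2 and Mcm5, and 0.65 between Mcm2 and Mcm3. After state, sex, and experiment were fitted, r of the residuals was 0.76, 0.74, and 0.70, so these 3 also varied together within states. Rrm1 followed Mcm3 (r = 0.79, residual 0.74). Lig1 was closest to Mcm7 (r = 0.78, residual 0.60). Mcm7 had r of 0.33 with Mcm2, 0.60 with Mcm3, and 0.63 with Mcm5, but residual r of only 0.014, 0.23, and 0.21. Mcm4 had r between -0.24 and 0.05 with the other MCM genes, and the median r over all 36 pairs of the 9 genes was 0.16. The values are descriptions: the animals share states, experiments, and the shifts of single animals, so no P is given.

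**Figure D3:**
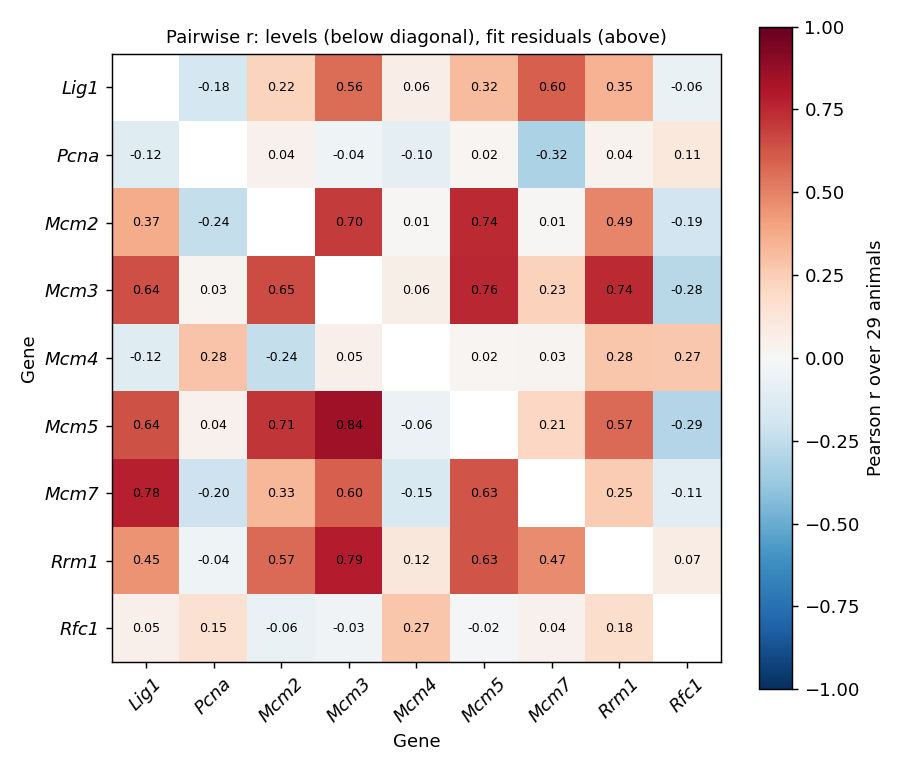
Pearson r over 29 animals for each pair of the 9 genes, from levels below the diagonal and from residuals after state, sex, and experiment above it; red is positive and blue negative. Mcm2, Mcm3, Mcm5, and Rrm1 form a red block in both triangles (Mcm3 with Mcm5 0.84 and 0.76), and the Mcm4, Pcna, and Rfc1 rows are pale.

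The 5 genes outside the set whose levels were most like Lig1 over the 29 animals were Irf3 (r = 0.86), a transcription factor of the antiviral response, then Trip10 (0.84), Clasrp (0.82), Tcf7l1 (0.82), and Pcif1 (0.81). All 5 were lower in SA than in SpD, by 0.40 to 0.71. They were chosen for likeness to Lig1 in these same animals, so sharing its direction is not a separate result. The 5 most like the mean of the 5 MCM genes were Mvp (r = 0.87), the major vault protein, Rps6ka4 (0.86), Pole (0.84), a further row named MVP (0.82), and Krt8 (0.82), a simple epithelial keratin. Pole encodes the catalytic subunit of DNA polymerase epsilon, and it was the 1 gene of the replication lists among these 10.

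In a list of 77 further replication genes grouped by role, 51 were in the table. By season, 6 of the 51 were DE and higher in hibernation and 2 were DE and lower, where 4.43% and 5.29% of all genes were. The 6 include Pola2 and Pole, which by the deposited values could pass the authors' filter only through hibernating states. At q under 0.05, 22 of the 51 were higher and 5 lower, beside 16.6% and 16.8% of all genes. The 22 include Pola2, Pole, and Rfc4, and by the deposited values Rfc4 could pass that filter only through Ent. The median seasonal difference was 0.12 over these 51 genes and 0.00024 over all genes. Of the 8 DE genes, 5 remained DE with all 31 animals, where 7.24% of all genes were DE. The other 26 of the 77 had no row under their symbol, among them Rrm2, Tk1, Top2a, Cdc6, Cdt1, Cdc45, Cdc7, and Dbf4, all of which rise in dividing cells.

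Among genes of origin recognition and licensing, 6 of 10 were present. Orc5, of the origin recognition complex, was 0.31 lower in hibernation (q = 6.12e-05). Gmnn, the geminin inhibitor of licensing, was 0.27 higher (q = 0.000495), and Mcmbp, which binds MCM proteins, was 0.18 higher (q = 0.000414). Orc1, Orc6, Cdc6, and Cdt1 were absent. Of the helicase activation and fork genes only 4 of 15 were present: Topbp1, an activator of origin firing and of the checkpoint, was 0.22 higher (q = 0.000193), and Mcm10 was 0.73 lower (q = 0.00913) with an SD of 0.81 in SA. Timeless (-0.14, q = 0.0629) and Tipin (0.10, q = 0.125) did not pass. Gins1, Gins2, Gins3, Gins4, Wdhd1, Clspn, Recql4, and Ticrr were absent beside Cdc45, Cdc7, and Dbf4.

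Of 11 polymerase and primase genes present (Pole2 was absent), 6 were higher in hibernation at q under 0.05 and none was lower, beside 16.6% and 16.8% of all genes. Pola2, the regulatory subunit of polymerase alpha, was 0.34 higher (q = 5.78e-05), and its SA animals lay between 6.57 and 6.80 beside 7.06 to 7.23 in IBA. Pole was 0.37 higher (q = 6.61e-05), with 6.60 ± 0.12 in SA (n = 4) and 7.18 ± 0.14 in IBA (n = 5). Their seasonal q with all 31 animals was 0.00160 and 0.00145. The primase subunit gene Prim2 had a seasonal difference of -0.13 (q = 0.198) and a q of 0.0395 within the hibernation season.

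In clamp loading and single-strand binding, 8 of 11 genes were present (Atad5, Chtf18, and Dscc1 were absent). Of the 8, 5 were higher in hibernation at q under 0.05 and none was lower, beside the same background. The 5 include Rfc4 (0.25, q = 0.00230), which by the deposited values could pass the authors' filter only through Ent. Rfc5, a small subunit of the clamp loader, was DE (0.22 higher, q = 5.66e-05) and remained so with all 31 animals (q = 4.73e-05), whereas the large subunit gene Rfc1 was not (q = 0.657). Rpa2, of the single-strand binding protein RPA, was 0.20 higher (q = 0.00195), and Chtf8, of an alternative loader, was 0.13 higher (q = 0.00704).

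Among 6 of 8 genes of Okazaki fragment processing and topoisomerases, none was DE by season; Dna2 and Top2a were absent. Of the 6, 3 had a q under 0.05 within the hibernation season, beside 16.1% of all genes. Fen1, the flap nuclease that acts just before LIG1, was 9.62 ± 0.081 in IBA and 9.30 ± 0.11 in EAr (n = 5 each, q = 0.0113 within the season). Rnaseh2b moved the other way, with 8.55 ± 0.14 in IBA and 9.04 ± 0.21 in Ent (q = 0.00317), and Top1 had q = 0.0418. For nucleotide supply, 6 of 9 genes were present and none was DE by season. Dtymk was 0.22 higher (q = 0.00217), and Rrm2b, the p53-inducible small subunit that can pair with RRM1 outside S phase, differed by -0.05 (q = 0.550). Dck was absent beside Rrm2 and Tk1. Of 6 chromatin assembly genes present among 8, 4 were higher by season at q under 0.05, beside 16.6% of all genes. They included Chaf1a (0.26, q = 0.00224), Supt16h (0.18, q = 0.00129), and Ssrp1 (0.12, q = 0.0144). Asf1b and Uhrf1 were absent.

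**Figure D4:**
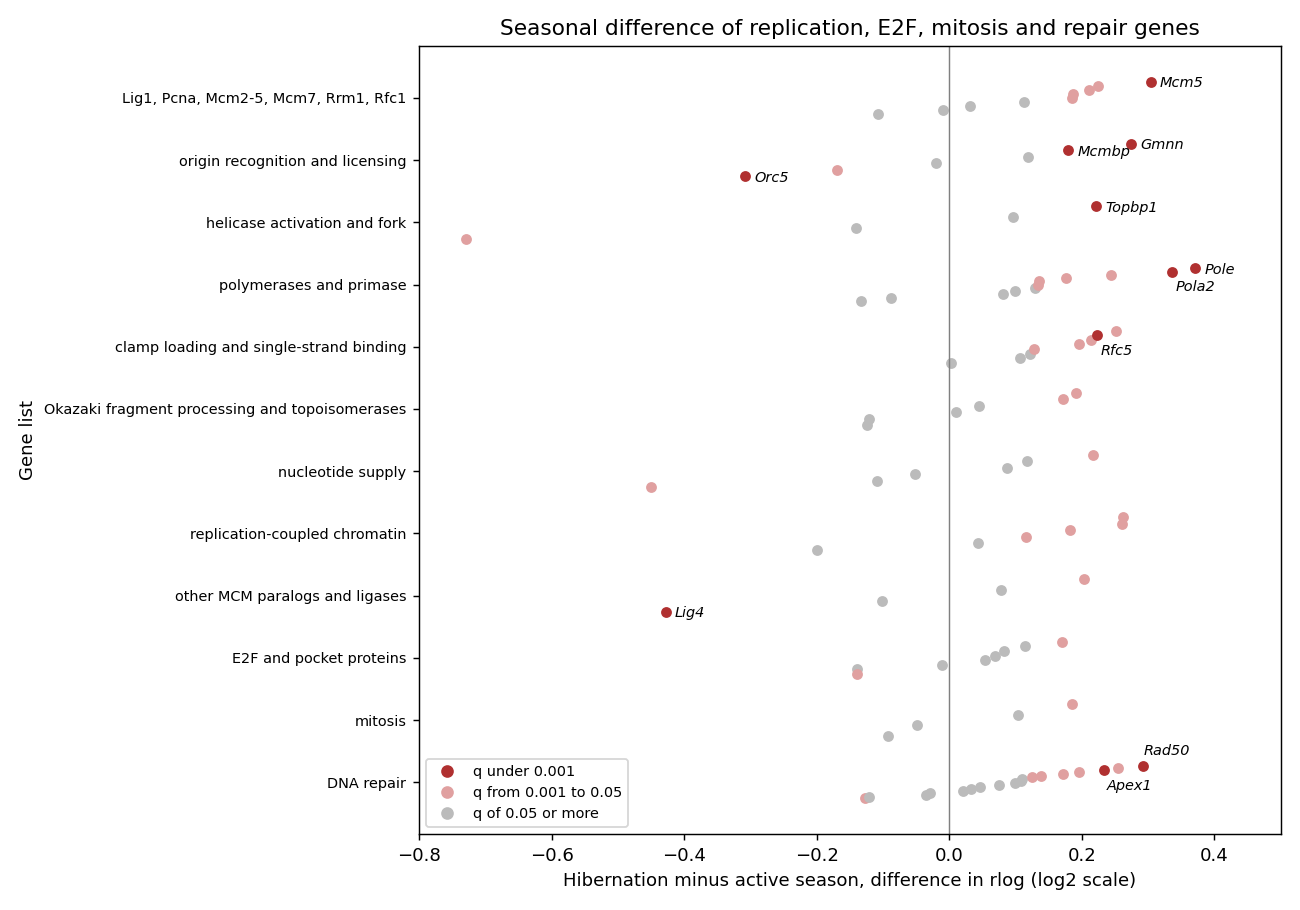
Seasonal difference (hibernation minus active season, rlog, log2 scale, 29 animals) of the 9 genes and of 81 genes in 11 further lists, 1 row per list; dark red is q under 0.001, pink q from 0.001 to 0.05, and grey q of 0.05 or more. Most dark points lie right of 0, from Mcmbp (0.18) to Pole (0.37), and Orc5 (-0.31) and Lig4 (-0.43) lie left.

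The 3 DNA ligases differed in their patterns. Lig4, which joins double-strand breaks by end joining, was DE across the states (q = 3.84e-08) and within the hibernation season (q = 1.29e-06), and was 0.43 lower in hibernation than in the active season (SE 0.048, q = 7.56e-07). Its means were 9.16 ± 0.13 in SA, 9.11 ± 0.092 in IBA, 8.58 ± 0.19 in Ent, 8.38 ± 0.042 in EAr, 8.60 ± 0.062 in LAr, and 9.03 ± 0.23 in SpD. Thus IBA lay with the active states, and all Ent, EAr, and LAr animals lay below all IBA animals, the separations given above for Mcm4. Lig3, which acts in base excision repair and in mitochondria, differed by -0.10 by season (q = 0.0776) and by -0.18 between hibernation and SA (q = 0.0322). The seasonal difference of Lig4 in all 31 animals was -0.42 (q = 4.85e-06). Mcm8 and Mcm9, MCM paralogs that act in recombination, were 0.20 (q = 0.00402) and 0.08 (q = 0.120) higher in hibernation.

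**Figure D5:**
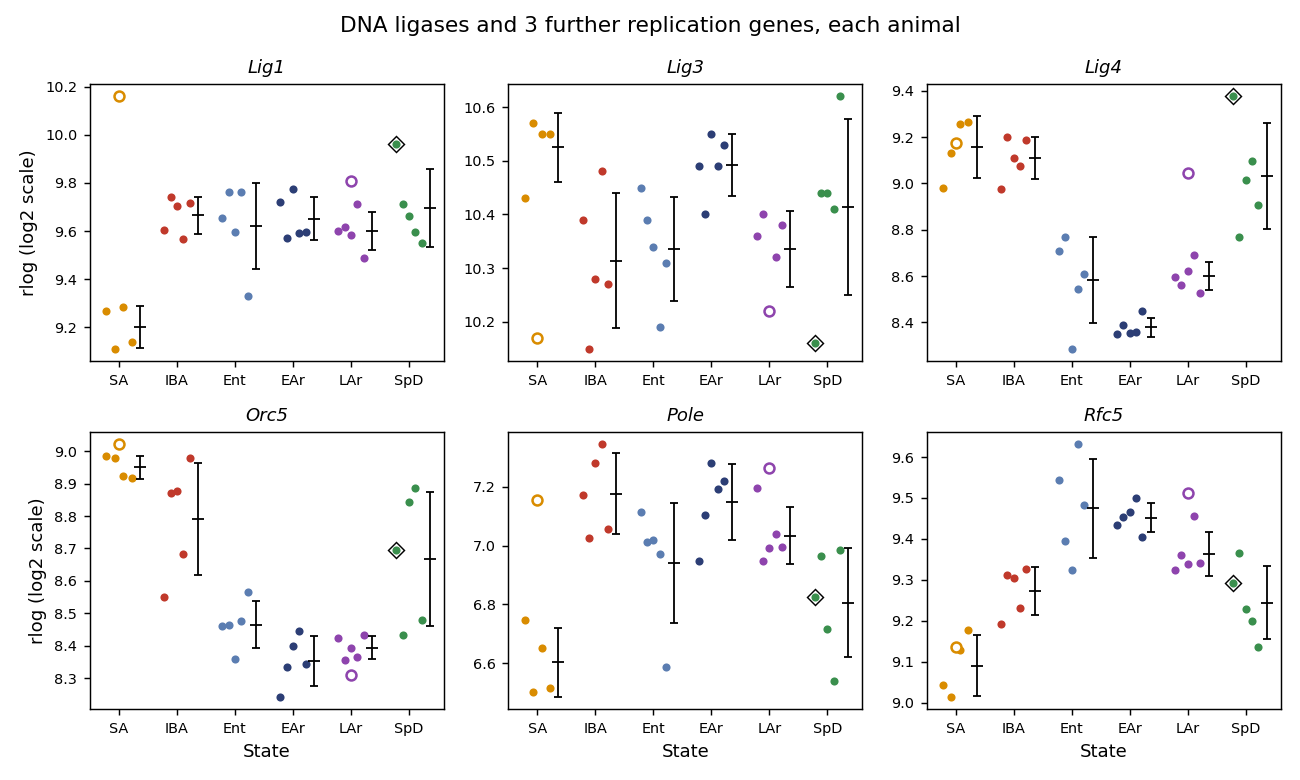
Level (rlog, log2 scale) in each animal by state of Lig1, Lig3, Lig4, Orc5, Pole, and Rfc5; filled points are the 29 animals, open circles K113 (LAr) and K137 (SA), black diamonds K130, and bars mean ± SD of the filled points. Lig1 and Pole are lowest in SA, whereas Lig4 and Orc5 are high in SA and IBA and low in Ent, EAr, and LAr; each panel has its own axis, which does not start at 0.

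Few E2F and mitosis genes were in the table. Of the E2F factors and pocket proteins, which set when replication genes are transcribed, 8 of 13 were present; E2f1, E2f2, E2f7, E2f8, and Rbl1 were absent. None was DE by season; Tfdp2 was 0.17 higher (q = 0.0349), the repressor Rbl2 was 0.14 lower (q = 0.0208), and E2f4 differed within the hibernation season (q = 0.00315). Of 24 mitosis genes, 20 were absent, including Mki67, Ccna2, Ccnb1, Ccnb2, Cdk1, Plk1, Aurka, Aurkb, and Birc5, and also Bub1, Bub1b, Cenpe, Cenpf, Kif11, Kif20a, Cdc20, Nusap1, Ncapg, Cdca3, and Prc1. The 4 present were Smc2 (0.19 higher, q = 0.0102), Smc4 (-0.05, q = 0.476), Tpx2 (-0.09, q = 0.228), and Ncapd2 (0.10, q = 0.161).

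Of 26 DNA repair genes, 18 were present, and 2 were DE and higher in hibernation, where 4.43% of all genes were: Rad50 (0.29, q = 7.85e-05), of the complex that senses double-strand breaks, and Apex1 (0.23, q = 0.000270), the base excision endonuclease. At q under 0.05, 7 of the 18 were higher and 1, Xrcc1 (-0.13, q = 0.0287), the partner of LIG3, was lower, beside 16.6% and 16.8% of all genes. Atm, the double-strand break kinase, was 0.25 higher (q = 0.00125). Exo1, Brca1, Brca2, Fancd2, Chek1, Chek2, and Mre11a were among those absent.

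Of 37 markers of kidney and blood cell types, 27 were in the table. None was DE by limma between hibernation and the active season or between hibernation and SA, where 9.73% and 6.48% of all genes were. At q under 0.05, 10 were lower in hibernation than in the active season and 5 were lower in hibernation than in SA, beside 16.8% and 14.7% of all genes, and none was higher. Mean levels over the proximal tubule markers were 15.01 to 15.34 in SA, 13.63 to 15.01 in the hibernating animals, and 13.40 to 15.21 in SpD. The collecting duct intercalated markers lay at 11.17 to 11.52 in SA, 10.52 to 11.17 in hibernation, and 10.64 to 11.39 in SpD. For both lists the SA range met the hibernating range at its upper end and overlapped the SpD range. Both marker ranges reached highest in SA, where Lig1, Mcm5, and Mcm7 were lowest, as did those of the podocyte markers and Cd79a. The part of cell make-up in the levels of Lig1, Mcm5, and Mcm7 was not tested.

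In the remaining lists the SA and hibernating ranges overlapped as well. Podocyte markers lay at 11.84 to 12.37 in SA and 9.94 to 12.16 in hibernation, and endothelial markers at 10.80 to 11.37 and 10.58 to 11.37. The macrophage ranges were 8.49 to 9.05 and 8.34 to 9.49, the fibroblast ranges 8.68 to 9.69 and 8.34 to 9.72, and those of Cd79a, the lymphocyte marker present, 9.68 to 10.41 and 8.84 to 9.98. Loop of Henle (14.24 to 15.82 and 13.90 to 15.66), distal convoluted tubule (13.64 to 14.05 and 12.93 to 14.43), and principal cell markers (11.77 to 12.08 and 11.28 to 12.23) overlapped, as did Slc14a2 (6.17 to 10.43 and 6.11 to 12.24). Cd3e, Cd79b, Ltb, both neutrophil markers (S100a8 and S100a9), the red blood cell markers (Hba-a1, Hbb-bt, and Alas2), Aqp4, and Pvalb were not in the table.

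Neither sex nor experiment had a term past the threshold for any of the 9 genes. The male minus female term lay between -0.04 and 0.13 (q of 0.810 or more), and the term for the later minus the earlier experiment, left after the authors' own correction, lay between -0.09 and 0.13 (q of 0.870 or more). A difference between the sexes in the seasonal change had q of 0.994 or more for all 9, and no gene of the table was called. The genes lie apart in the genome: 8 of the 9 matched a single RefSeq entry (assembly mIctTri1.hap1), on 8 chromosomes. Of the 10 genes next to them there that were in the table, none was DE between hibernation and SA by limma (lowest q, 0.00230 for Ap4m1 beside Mcm7, 0.26 higher), and 1 was DE by season: Wdr19 beside Rfc1 (-0.24, q = 0.000126), in the direction opposite to the small difference of Rfc1 itself. Tmem230 beside Pcna was 0.48 lower in hibernation than in SA (q = 0.00870).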

How the data were processed

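RNA-Seq libraries from poly(A) RNA of 31 kidneys were made with a TruSeq kit (9 animals, the earlier experiment) or a Nugen kit (22 animals, the later one), and the experiments also differed in sequencing site and instrument. Per the study's methods, adaptors were cut off with cutadapt, reads of mitochondrial origin were set aside by HISAT2 mapping, and Salmon assigned what remained to HiC_Itri_2 transcripts (versions not given in the sources used here). The authors kept genes with rlog of at least 7 in 4 of 5 individuals of a group. The deposited values are batch-corrected log2 (rlog) values from limma's removeBatchEffect, not counts, so depth and counting error are unknown and no count test was run. Every column was mapped to an animal.

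State, sex, and experiment were the terms of a model fitted across all 12863 genes (limma 3.58.1, R 4.3.3) with eBayes and its trend option, and P values were adjusted by Benjamini-Hochberg within each contrast. Contrasts were an F test across 6 states, an F test within hibernation, hibernation minus active season, and all 15 pairs of states. Because values were already batch corrected, the experiment term takes up only what was left. Hibernation minus SA, hibernation minus SpD, and the sex-by-season term were added after seeing the data. The script was tested on simulated data. Figures used matplotlib 3.10.9.

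Each animal is a replicate and carries its own number, so states are not paired. The 10 genes, the further lists, and the markers were chosen with earlier results of these data known. Named from the lists were up to 3 genes per role with the lowest q across the states, others chosen after their values were seen, and the absent genes; some members of these lists are not reported here by name. Likeness was Pearson r over 29 animals, 5 genes per target. Alternatives were other sets of animals, terms, weights, centring, filters, and thresholds. Gene sequences were not used here.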

Additional observations from a re-analysis of the deposited data

Results flagged for a closer look

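In 10 of the 54 groups (9 genes in 6 states, all 31 animals), the highest or lowest animal lay farther from its nearest neighbour than Dixon's limit allows. Chance flags about 5% of groups. In SA, K137 was far above the others for Lig1 (10.16, next 9.28), Mcm7 (10.35, next 10.06), and Rrm1 (9.78, next 9.45). In LAr, K113 was far above the others for Mcm3 (9.39, next 8.98), Mcm4 (7.85, next 7.18), Mcm5 (8.98, next 8.59), and Rrm1 (9.91, next 9.47). These 7 groups are those in which K113 or K137 stood out, animals that the study left out. Among the 29 animals kept, Rfc1 was high in SpD animal K130 (11.08, next 10.72), and Pcna was low in EAr animal K154 (9.49, next 9.69) and in SpD animal K3 (9.71, next 9.86).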

How the results depend on the processing

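Of the 9 genes, 1 was DE across the 6 states, 1 by season, 0 within hibernation, 3 against SA, and 0 against SpD, and 5 of 135 gene-by-pair tests were, all of them Lig1 against SA. With all 31 animals the counts were 0 across the states, 0 by season, 0 of the pairs, and 0 against SA, and K137 put back alone gave 0 in each of these as well. Array weights gave 3 across the states, 1 within hibernation (Pcna, q = 0.000507), 9 of the pairs, and 2 against SA. Median centring gave 2 by season. At q under 0.01 the counts were 3 across the states, 3 by season, and 12 of the pairs, and at q under 0.05 they were 5, 5, and 21, with 1 within hibernation. The 5 by season include Mcm2, which by the deposited values could pass the authors' filter only through hibernating states. Of all genes, 46.1% passed q under 0.05 across the states and 16.1% within hibernation. By season, 16.6% were higher and 16.8% lower. No share of all genes is given for the pairs at q under 0.05, for q under 0.01, array weights, median centring, or experiment 2 alone. Those counts can therefore not be set against the whole table. Fitting only the 2 states compared gave 0 pair calls. Leaving out 1 animal at a time gave 0 to 1 across the states (0 without SA animals K139 or K141), 0 to 4 by season (0 without SA animal K139 or SpD animal K9; 2 without LAr animal K112; 4 without Ent animal K8), 0 to 0 within hibernation, 1 to 7 of the pairs, 1 to 3 against SA (1 without any of the 4 SA animals in turn, 2 without Ent animal K155), and 0 to 0 against SpD. Experiment 2 alone called Mcm3 in place of Mcm5 by season and 4 genes against SA. The seasonal difference changed sign for Pcna, from -0.01 to 0.00086 with median centring and to 0.0060, 0.0015, 0.0053, and 0.0059 without IBA animal K1, SA animal K141, EAr animal K154, and Ent animal K2 (-0.029 to 0.0060 without any 1 animal), and for Rfc1, from 0.03 to -0.068 in experiment 2 alone. Neither was called in any of these fits. The other 7 genes kept their seasonal direction in every fit. The cause of these changes was not tested. No paired analysis was possible because each animal has its own number and gave 1 kidney. SA has 4 animals, and all SA, EAr, and LAr animals came from the later experiment. Depth is unknown.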
